A study of Mus musculus with 6 samples.

Results

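Skeletal muscle sarcomere and contraction genes were followed through 6 biopsies of healed mouse skin wounds. The set holds 34 listed genes, and a member was a row of the deposited table whose only gene symbol in the platform annotation was a listed gene, with the row of highest mean level kept for each gene. By that rule 30 of the 34 genes had a row, out of 20255 genes named in this way. Myh2, Myh4, Myh7 and Xirp2 were annotated only in rows that carry several symbols, so no level is given for them. The samples were whole skin biopsies of wound scars taken from mice with high follicle regeneration (called high scars here) and from mice with low regeneration (low scars). Each group had 3 samples, taken 4, 6 and 9 days after the wound had closed. The sample labels call the second group low, while the series' design text describes its mice as having formed no follicles. No genotype, strain, age, sex or treatment is given in the sources used here, and nothing says whether any samples share an animal. RNA came from the whole biopsy, so the depth of skin that each biopsy took in is part of every value.

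The sarcomere is the repeating contractile unit of striated muscle, in which myosin thick filaments pull on actin thin filaments when calcium binds troponin. Fast and slow fibres use different genes for many of its proteins: Myh1, Myh2 and Myh4 encode myosin heavy chains of fast fibres and Myh7 that of slow fibres, and the light chains and troponins are divided in the same way. Under the dermis of mouse skin lies the panniculus carnosus, a thin sheet of striated muscle made mainly of fast fibres. Fibroblasts, keratinocytes and blood vessels of a scar do not make sarcomeres, so these genes serve as a sign of muscle in a biopsy. Of the 30 genes with a row, 11 are genes of fast fibres, 6 of slow fibres and 13 are used by both or were not assigned to either.

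The promoters of 4 members are shown because they stand for the range of the data that follow. Ttn, Acta1 and Myl1 were among the 4 members that differed most within the day 4 pair, and Myl3, a gene of slow fibres, had the lowest difference of all members in that pair. Each run covers 250 bases before and 50 after the start of the gene, 5′ to 3′ on the gene's strand, from RefSeq on GRCm38.p6. Capitals mark matches to the E-box (CANNTG), to the MEF2 motif and to the CArG box, which are bound by the myogenic factors of the MyoD family, by MEF2 proteins and by serum response factor.
Ttn (chr2:76982498-76982797, minus strand): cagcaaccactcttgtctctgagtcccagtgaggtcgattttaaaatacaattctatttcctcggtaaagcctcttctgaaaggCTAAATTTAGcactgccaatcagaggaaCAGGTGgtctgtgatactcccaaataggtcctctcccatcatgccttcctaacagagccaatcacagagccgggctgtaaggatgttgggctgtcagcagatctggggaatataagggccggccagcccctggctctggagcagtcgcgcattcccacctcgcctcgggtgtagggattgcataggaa
Acta1 (chr8:123894726-123895025, minus strand): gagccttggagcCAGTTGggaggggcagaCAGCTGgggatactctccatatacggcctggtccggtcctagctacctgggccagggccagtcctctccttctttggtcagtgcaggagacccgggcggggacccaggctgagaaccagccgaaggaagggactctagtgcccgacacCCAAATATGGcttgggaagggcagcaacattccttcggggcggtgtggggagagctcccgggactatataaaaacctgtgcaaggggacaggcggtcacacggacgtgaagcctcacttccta
Myl1 (chr1:66945007-66945306, minus strand): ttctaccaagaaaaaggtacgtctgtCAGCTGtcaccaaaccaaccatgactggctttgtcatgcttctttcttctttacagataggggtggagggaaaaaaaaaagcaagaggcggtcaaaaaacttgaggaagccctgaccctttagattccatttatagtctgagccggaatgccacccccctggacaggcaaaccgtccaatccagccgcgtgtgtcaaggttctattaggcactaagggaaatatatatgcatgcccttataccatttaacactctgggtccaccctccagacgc
Myl3 (chr9:110763428-110763727, plus strand): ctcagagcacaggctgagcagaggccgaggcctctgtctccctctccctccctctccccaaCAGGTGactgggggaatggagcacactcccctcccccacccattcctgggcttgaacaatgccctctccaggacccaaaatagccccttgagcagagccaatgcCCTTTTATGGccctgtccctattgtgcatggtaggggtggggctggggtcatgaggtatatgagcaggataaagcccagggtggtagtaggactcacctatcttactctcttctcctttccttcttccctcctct
The MEF2 match of Ttn began at position -166 from the gene's start, and the CArG matches of Acta1 and Myl3 began at -73 and -85. RefSeq promoters were matched by symbol for 27 of the 34 listed genes. An E-box lay in 22 of these 27 (81.5%), against 72.1% of the 27025 promoters in the table, 1 per gene. Its form CAGCTG, counted within the E-boxes, lay in 13 of 27 (48.1%), against 16.1% of all promoters. The motif CATTCC, searched on both strands and known as MCAT, lay in 11 of 27 (40.7%), against 14.6%. MEF2 matches lay in 5 of 27 (18.5%), against 3.26%, and CArG matches in 4 of 27 (14.8%), against 1.57%. These are matches of letters and not measured binding.

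Array medians lay between 6.04 and 6.10 log2 units over all rows. A level on such an array has no true zero and the table carries no detection call, so whether a member at a low level was above background is not known. The low scar of day 9 stood apart in its sex-linked genes: Xist, expressed from the inactive X chromosome, was at 12.77 there, against 5.75 to 7.30 in the other 5 samples, and the Y-linked gene Uty was at 3.88, against 7.46 to 8.07. Within the day 9 pair, group and sex cannot be told apart. Of the other samples, the low scar of day 6 alone held Xist above 5.82, at 7.30, with Uty at 7.85. The high scar of day 4 stood apart at the histocompatibility gene H2-Ea, at 6.59 against 4.09 to 4.43 in the other samples. H2-Ob went the opposite way, with 6.16 in that biopsy and 7.68 to 8.07 elsewhere. Whether the mice of the day 4 pair differed in genetic background was not tested. Within that pair, group cannot be separated from any such difference.

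Most members were highest in the same biopsy. Of the 30 members, 28 had their highest level of all 6 samples in the high scar of day 4. Among the members that passed the filter for testing it was 23 of 24, against 24% of the 15191 genes tested. The exceptions were Myl2 and Myl3, light chains of slow and cardiac muscle. In that sample 21 of 30 members exceeded all 5 other samples by 0.5 log2 units or more. For 10 of them the margin was 1 or more. Of the genes tested, 1.03% stood that far above the low scar of day 4 alone. Among the genes tested, 1.55% stood 0.5 or more above all 5 other samples, or 235 genes. Members made up 18 of those 235 (7.66%), which is 75% of the 24 members tested. The filter took each gene's mean over all 6 samples, so the high scar of day 4 counted towards it. Myot, with a mean of 5.64, passed only through that biopsy, where it was at 6.76. Its other 5 samples, from 5.22 to 5.55, lay below the filter's level. Myot is counted among the members tested here and below. A member's median margin over the next sample was 0.74. The low scar of day 4 also carried signal for some rows, among them that of Myl1 and a row of Myh1. In bulk tissue, a larger share of muscle cells and more of these transcripts per muscle cell cannot be told apart.

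**Figure D1:**
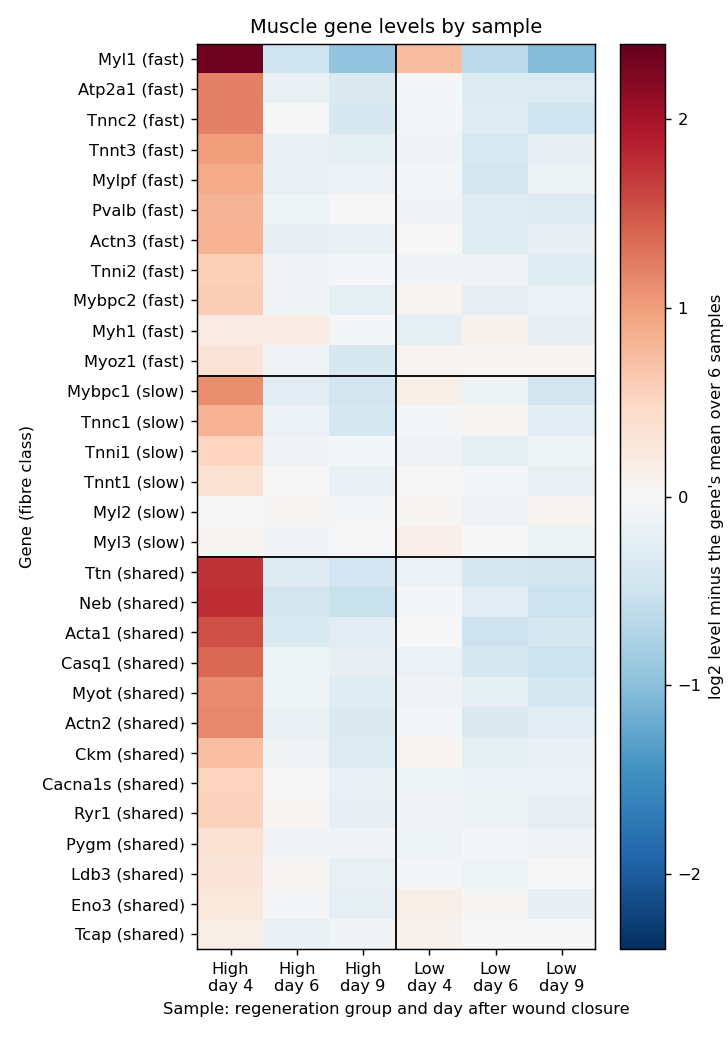
Level of each of the 30 muscle genes (down the page, in fast, slow and shared classes) in each sample (across), as log2 units from the gene's mean over the 6 samples, red above and blue below. The column of the high scar of day 4 is red for nearly all genes, palest for Myl2 and Myl3.

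The mean over the 30 members, each taken relative to its own mean over the 6 samples, gives a muscle level for each biopsy. In high scars it was 0.81, -0.12 and -0.24 log2 units at days 4, 6 and 9. In low scars it was 0.0023, -0.20 and -0.26 at the same days. By these means the high scar of day 4 stood first and the low scar of day 4 second. The means of the day 6 and day 9 samples lay close together, from -0.12 to -0.26. Over the slow genes alone the low scar was the higher at day 6 (-0.070 against -0.087) and day 9 (-0.174 against -0.179). Over the fast and over the shared genes the high scar was the higher at both days. The SD over genes was 0.56 in the high scar of day 4 and between 0.14 and 0.22 in the other 5, which describes how unequally the members stood within a biopsy and is not an error of its mean. No test was run on these means, since members of a sample are not replicates of it.

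Among the thin filament genes, Acta1, the actin of skeletal muscle, stood at 8.30, 6.38 and 6.47 in high scars (days 4, 6 and 9), against 6.75, 6.26 and 6.34 in low scars. The day 4 high scar was the only sample above 7. The low scar of day 4 came next, above the other high scars, and the low scars of days 6 and 9 lay below every high scar. Neb encodes nebulin, a giant protein along the thin filament, and stood at 7.78, 5.56 and 5.48 in high scars and 5.98, 5.74 and 5.50 in low scars. Tnnt3, the troponin T of fast fibres, was at 7.57, 6.42 and 6.36 in high scars and 6.51, 6.20 and 6.37 in low scars. For Tnnt3 the high scars of days 6 and 9 lay among the low scars, and for Neb that of day 9 lay just below them.

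The other troponins were also highest in that biopsy. Tnnc2, the calcium-binding troponin C of fast fibres, was at 7.77, 6.56 and 6.18 in high scars and 6.54, 6.27 and 6.08 in low scars. Tnni2, the inhibitory troponin of fast fibres, was at 7.48, 6.85 and 6.87 in high scars, against 6.85, 6.83 and 6.62 in low scars. Their slow counterparts shared that highest sample. Tnnc1, the troponin C of slow and cardiac muscle, was at 6.63, 5.64 and 5.36 in high scars and 5.74, 5.82 and 5.54 in low scars. Tnni1 was at 6.64, 6.04 and 6.11 in high scars and 6.05, 5.90 and 6.02 in low scars. Tnnt1, the troponin T of slow fibres, was at 8.26, 7.90 and 7.74 in high scars, against 7.90, 7.86 and 7.71 in low scars. A second row of Tnnt1, not kept by the rule, was at 5.95, 5.82 and 5.72 in high scars and 5.52, 5.49 and 5.38 in low scars. In that row the high scar was higher in all 3 pairs, by 0.44, 0.33 and 0.34, and 15.8% of genes tested were higher in all 3. At days 6 and 9 each slow troponin varied by less than 0.5 over both groups.

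Of the thick filament genes, Myl1, the essential light chain of fast fibres, had the widest range. It stood at 7.61, 4.81 and 4.34 in high scars and at 6.03, 4.66 and 4.24 in low scars. Myl1 was the only member for which the low scar of day 4 also stood apart, 1.21 log2 units above the highest of the day 6 and day 9 samples. A margin of 0.5 or more of that kind was reached by 0.481% of the genes tested. Mylpf, the regulatory light chain of fast fibres, was at 6.79, 5.73 and 5.77 in high scars and 5.86, 5.51 and 5.78 in low scars. Myl2 and Myl3, their counterparts in slow and cardiac muscle, showed no such sample. Myl2 was at 5.22, 5.24 and 5.17 in high scars, against 5.25, 5.14 and 5.28 in low scars. Myl3 was at 6.99, 6.89 and 6.96 in high scars, against 7.07, 6.95 and 6.82 in low scars.

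Myh1, the myosin heavy chain of fast IIx fibres, had 4 rows of its own, and they disagreed. The row of highest mean, kept by the rule, was at 10.02, 10.00 and 9.78 in high scars and 9.60, 9.90 and 9.61 in low scars, with the 2 groups overlapping and a margin of 0.020 for the high scar of day 4. The row next in mean level was at 8.69, 4.42 and 4.03 in high scars and 6.14, 4.57 and 3.65 in low scars. That row had the widest range of any member row. It stood apart in both day 4 samples, as Myl1 did. The other rows stood at 6.04, 4.46 and 4.64 in high scars against 4.44, 4.72 and 4.37 in low scars, and at 6.81, 2.93 and 2.83 in high scars against 4.61, 3.57 and 3.08 in low scars. The differences within the day 4 pair were 0.42 for the kept row and 2.55, 1.61 and 2.20 for the others. Which exons each row covers is not given in the sources used here.

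**Figure D2:**
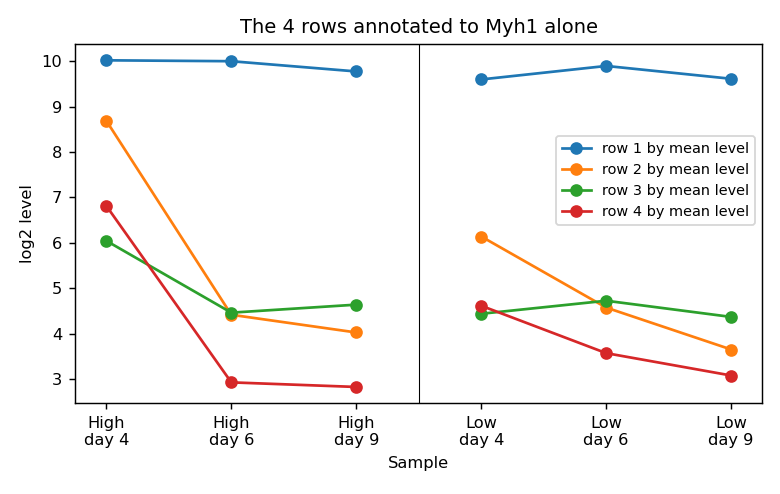
Log2 level of the 4 rows annotated to Myh1 alone (lines, numbered by mean level) in high scars (left) and low scars (right) at days 4, 6 and 9. Row 1, kept for the gene, stays between 9.60 and 10.02, while the other 3 rows are highest in the high scar of day 4.

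Genes of the Z-disc, the anchor of the thin filaments, and of the elastic filament gave the largest and some of the smallest differences. Ttn, the giant elastic protein that spans the sarcomere from Z-disc to midline, stood at 7.11, 5.08 and 4.93 in high scars and 5.25, 4.97 and 4.95 in low scars. The 5 samples other than the high scar of day 4 lay between 4.93 and 5.25. Actn3, the alpha-actinin of fast fibres, was at 7.59, 6.56 and 6.59 in high scars, against 6.77, 6.47 and 6.55 in low scars. Actn2, the alpha-actinin of all fibres, and Myot, a Z-disc protein that binds alpha-actinin, had day 4 differences of 1.19 and 1.21. Tcap, the titin cap, lay between 4.78 and 5.09 in all 6 samples.

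Calcium handling genes had the same highest sample as the filament genes. Atp2a1, the calcium pump of the sarcoplasmic reticulum in fast fibres, was at 7.69, 6.29 and 6.13 in high scars and 6.44, 6.15 and 6.14 in low scars. Casq1, which stores calcium in that compartment, was at 7.66, 6.19 and 6.09 in high scars and 6.15, 5.89 and 5.77 in low scars. Pvalb, the calcium buffer of fast fibres in mice, was at 7.002, 6.08 and 6.18 in high scars and 6.12, 5.91 and 5.86 in low scars. The high scar exceeded the low scar of its day for Casq1 and Pvalb at all 3 days, but the ranges of the groups overlapped. Ryr1, the calcium release channel, was at 7.08, 6.54 and 6.33 in high scars and 6.45, 6.39 and 6.33 in low scars. Cacna1s, the voltage sensor that opens it, differed by 0.65 within the day 4 pair.

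The muscle enzymes varied in how far they differed. Ckm, the creatine kinase of muscle, was at 7.50, 6.68 and 6.45 in high scars and 6.83, 6.56 and 6.61 in low scars, a difference of 0.68 within the day 4 pair. Pygm, the glycogen phosphorylase of muscle, differed by 0.45 within the day 4 pair. Eno3, the muscle enolase, differed by 0.11, and its 6 levels lay between 7.38 and 7.84. The remaining members were Mybpc1 and Mybpc2 (the myosin-binding C proteins of slow and fast fibres), Myoz1 and Ldb3 (Z-disc proteins). Their day 4 differences were 0.98, 0.51, 0.23 and 0.35.

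High and low scars were then compared at matched days, the question set by the study's design. The tests below used limma with day as a block, with p-values adjusted by the Benjamini-Hochberg method over all genes tested. Of the 30 members, 24 passed the filter on dim genes, which left out the lowest 25% of genes by mean level. Myl1, Ttn, Mybpc1, Myl2, Myoz1 and Tcap did not pass it, and among these Ttn and Myl1 had the first and the third largest differences within the day 4 pair.

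Of the 24 members tested, 0 passed an adjusted p of 0.05, where 0.0527% of all genes did, and the lowest adjusted p among members was 0.447, for Pvalb. At an unadjusted p under 0.05 there were 3 members higher in high scars (12.5%, against 4.89% of genes tested) and 0 lower (against 5.17%). Those 3 were Casq1, higher by 0.71 ± 0.70 log2 units (SD of 3 pairs, limma adjusted p = 0.489), Pvalb, by 0.46 ± 0.37 (limma adjusted p = 0.447), and Myh1, by 0.23 ± 0.17 (limma adjusted p = 0.489). They were also the only members with a row whose mean difference exceeded the SD of its pairs. For the other 27 the spread between pairs was wider than the difference. Myh1 is counted here by its kept row, and its 3 other rows had an unadjusted limma p from 0.149 to 0.486. Acta1 differed by 0.60 ± 0.82 (SD of 3 pairs, limma adjusted p = 0.578) and Neb by 0.53 ± 1.10 (limma adjusted p = 0.704). Without the filter Ttn differed by 0.65 ± 1.05 (limma adjusted p = 0.676) and Myl1 by 0.61 ± 0.85 (limma adjusted p = 0.636).

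That spread came from the days. Over the 30 members the median difference of high minus low was 0.75 at day 4, 0.12 at day 6 and -0.0042 at day 9, while the medians over all genes tested were -0.010, -0.00072 and -0.0033. At day 4 the members ran from -0.077 for Myl3 to 1.86 for Ttn, and 28 of 30 were above 0 (23 of the 24 tested, against 47.9% of genes tested). At day 6 they ran from -0.18 to 0.29 with 22 above 0 (19 of the 24 tested, against 49.8% of genes tested). At day 9 they ran from -0.42 to 0.32 with 13 above 0 (12 of the 24 tested, against 49.1%). A difference of at least 1 log2 unit was found in 10 of 30 members at day 4 (8 of the 24 tested), where 1.03% of the genes tested reached it. No member reached it at day 6 (0.178% of genes tested) or day 9 (0.533%). In the day 4 pair Ttn, Neb and Acta1 were higher by 3.63-fold, 3.49-fold and 2.92-fold. Since 1 sample stood for each group on each day, these values have no replicate check.

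**Figure D3:**
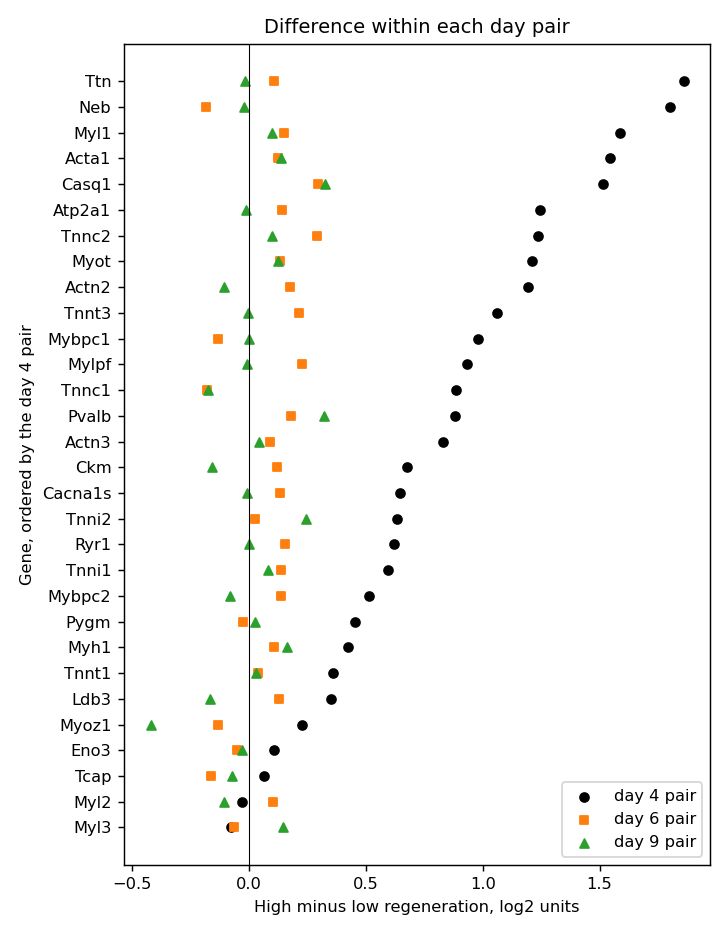
Difference of high minus low scars in log2 units (horizontal) for each of the 30 muscle genes (vertical, ordered by day 4), with 1 point for each of the day 4, 6 and 9 pairs. The day 4 points reach 1.86, while the day 6 and day 9 points lie between -0.42 and 0.32.

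The same sign at all 3 days was found for Acta1, Myh1, Myl1, Tnnt1, Tnni1, Tnni2, Tnnc2, Actn3, Myot, Pvalb and Casq1, all higher in the high scar of their pair. They were 11 of 30 members (10 of the 24 tested), and 15.8% of genes tested were higher in all pairs. Their differences at days 6 and 9 were small. Casq1 kept 0.29 and 0.32 at those days, Pvalb 0.18 and 0.32, and Tnnc2 0.29 and 0.098. Without the day 4 pair the median over the members tested was 0.066, against 0.29 with it, and 5 of 24 members changed sign.

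The genes of fast and slow fibres were set side by side, as the biopsy's muscle type was of interest. Over 11 fast genes the median difference within the pairs was 0.88, 0.14 and 0.044 at days 4, 6 and 9. Over 6 slow genes it was 0.48, -0.014 and 0.013, and over the 13 shared genes 0.68, 0.12 and -0.020. In the high scar of day 4, the mean level relative to each gene's own mean was 0.90 for fast genes, 0.48 for slow genes and 0.89 for shared genes. In the low scar of day 4 those means were 0.033, 0.029 and -0.036. All 11 fast genes were highest in the high scar of day 4, although Myh1 by 0.020 only, as were 4 of 6 slow genes. Among the members tested it was 9 of 9 fast and 3 of 4 slow genes, against 24% of all genes tested. The slow genes split: Mybpc1, Tnnc1, Tnni1 and Tnnt1 were at 0.98, 0.88, 0.59 and 0.36 within the day 4 pair, and Myl2 and Myl3 at -0.030 and -0.077. The difference between the classes was not tested, and without rows for Myh2, Myh4 and Myh7 the heavy chains cannot show the fibre type.

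**Figure D4:**
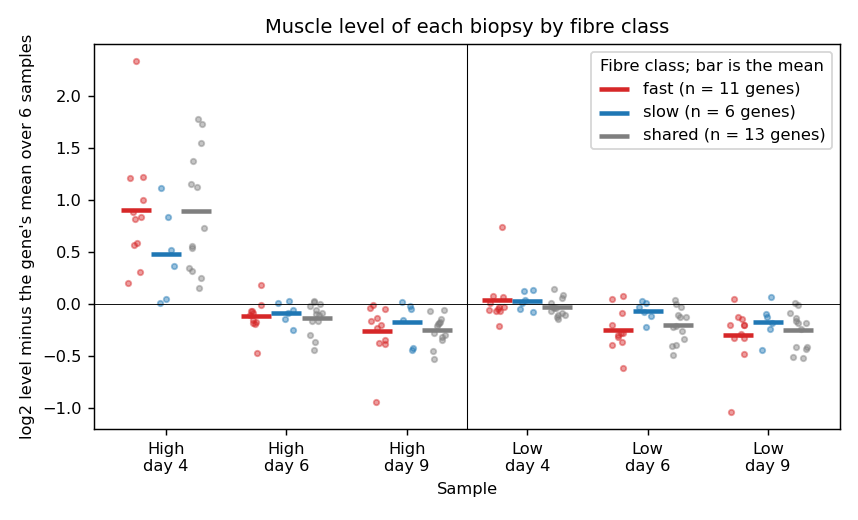
Log2 level relative to each gene's mean over 6 samples (vertical) in each biopsy (horizontal), with a point per gene and a bar at the mean of the 11 fast, 6 slow and 13 shared genes. The bars of the high scar of day 4 stand at 0.90, 0.48 and 0.89, and those of the other samples lie between -0.30 and 0.033.

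Change over time was fitted as a slope per day with group as a covariate. The design text gives each pair its own date, so day and anything else that the samples of a pair shared cannot be told apart. Of the 24 members tested, 0 passed an adjusted p of 0.05, as did 0% of all genes tested. All 24 had a negative slope, as did 54.8% of genes tested, with a median over the 30 members of -0.098 log2 units per day, against -0.0044 over all genes tested. At an unadjusted p under 0.05 there were 9 members with a negative slope (37.5%, against 9.24% of genes tested). The lowest p was that of Eno3, with a slope of -0.079 ± 0.016 (SE, limma adjusted p = 0.185), a gene that differed little between the groups. Tnnc2 followed with -0.20 ± 0.06 (SE, limma adjusted p = 0.243) and Tnnt1 with -0.069 ± 0.022 (SE, limma adjusted p = 0.251). Without the filter Myl1 had the steepest slope, -0.48 (limma adjusted p = 0.262).

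In each group the day 9 sample lay below the day 4 sample for most members. Day 9 minus day 4 was negative for 30 of 30 members in high scars, against 52.1% of genes tested, and the medians were -0.91 over members and -0.013 over genes tested. In low scars it was negative for 26 of 30 members (21 of the 24 tested), against 54% of genes tested, with medians of -0.22 and -0.018. The 4 others in low scars were Myh1, Myl2, Ldb3 and Pygm, at 0.015 to 0.025. For Myl1 the change was -3.27 in high scars and -1.78 in low scars. For Acta1 it was -1.83 and -0.42, and for Ttn -2.18 and -0.30. In low scars the day 4 sample was above all 4 samples of days 6 and 9 for 18 of 30 members (13 of the 24 tested). The share over genes tested was 20.1%, and the median margin over all 30 members was 0.052. The ranges of the members over those 4 samples ran from 0.056 to 0.57, with a median of 0.21, so most of these margins were within the spread of the later samples. Without the high scar of day 4 the median slope over the members tested was -0.039, and 2 of 24 members had a positive slope.

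A difference in slope between the groups was tested as an interaction. Of the members, 0 passed an adjusted p of 0.05, as did 0% of genes tested, and limma gave all members an adjusted p of at least 0.988. At an unadjusted p under 0.05 there was 1 member with a more negative slope in high scars, Ldb3, or 4.17% of members tested against 2.1% of genes tested.

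Muscle genes outside the set were counted from lists of known genes, with 0 genes of any list passing an adjusted p of 0.05 in limma for high against low or for the slope. The counts of genes highest in the high scar of day 4 are to be read against the 24% of all genes tested that were highest there. Other sarcomere genes had a row for 21 of 22, and 18 of 21 were highest in the high scar of day 4. Their median differences were 0.40, 0.047 and 0.068 at days 4, 6 and 9. Des, the intermediate filament of muscle cells, was at 8.22, 7.67 and 7.42 in high scars and 7.62, 7.51 and 7.10 in low scars, a difference of 0.36 ± 0.22 (SD of 3 pairs, limma adjusted p = 0.401). Nrap had the next lowest p, with a difference of 0.19 ± 0.08 (SD of 3 pairs, limma adjusted p = 0.465), but went another way over the days. It was at 7.14, 7.26 and 7.41 in high scars and 7.01, 7.09 and 7.13 in low scars, so its high scar of day 4 was the lowest high scar. Lmod2, which lengthens thin filaments, differed by 0.33 ± 0.41 (limma adjusted p = 0.565).

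Genes of the triad and of the nerve-muscle synapse had a row for 15 of 16, of which 10 were highest in the high scar of day 4, with medians of 0.19, -0.086 and -0.0063. Chrna1, the alpha subunit of the muscle acetylcholine receptor, was at 7.33, 6.80 and 6.50 in high scars and 6.63, 6.46 and 6.27 in low scars. It was higher by 0.42 ± 0.25 (SD of 3 pairs, limma adjusted p = 0.384) and in 3 of 3 pairs. The list of muscle metabolism had a row for 14 of 15, with medians of 0.22, 0.089 and 0.0057. Mb, the oxygen-binding protein of oxidative fibres and heart, was at 7.86, 6.46 and 6.21 in high scars, against 6.09, 6.01 and 6.07 in low scars. Mb was higher by 1.77, 0.46 and 0.15 within the day 4, 6 and 9 pairs (difference 0.79 ± 0.86, SD of 3 pairs, limma adjusted p = 0.509). Of the genes tested, 15.8% were higher in all 3 pairs.

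Regulators of muscle formation and repair differed unequally within the day 4 pair. Of 16 listed genes 13 had a row, 7 of them highest in the high scar of day 4, with medians of 0.13, 0.063 and 0.023. Chrnd, a receptor subunit, differed by 0.22 ± 0.18 (SD of 3 pairs, limma adjusted p = 0.504), and Cdh15 by 0.14 ± 0.09 (limma adjusted p = 0.551). Myf5 differed by 0.14 ± 0.25 (limma adjusted p = 0.701), but by -0.14 within the day 4 pair. Myod1, a factor that commits cells to the muscle lineage, differed by 0.14 ± 0.23 (limma adjusted p = 0.703). Within the day 4 pair 9 of the 13 genes were above 0, against 47.9% of genes tested. Mymk, a membrane protein needed for the fusion of muscle cells, had the largest day 4 difference of that list and was named after its values were seen. It was at 6.80, 5.88 and 5.96 in high scars and 5.93, 5.91 and 6.02 in low scars, a difference of 0.26 ± 0.53 (SD of 3 pairs, limma adjusted p = 0.709). Of the ligases and repeat proteins of muscle, 9 of 10 were highest in the high scar of day 4. Klhl41, which stabilises sarcomere proteins, was at 7.18, 5.55 and 5.53 in high scars and 5.76, 5.48 and 5.38 in low scars. Fbxo32, a ubiquitin ligase of muscle atrophy that other tissues also express, had a slope of -0.17 ± 0.02 (SE, limma adjusted p = 0.1) with levels of 9.21, 8.78 and 8.33 in high scars and 9.13, 8.89 and 8.32 in low scars. The dystrophin complex had 2 of 8 genes highest in the high scar of day 4, a share near that of all genes tested, with medians of 0.13, 0.052 and 0.023.

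Genes of heart muscle were examined because several members are shared with it. Of 8 with a row, 6 were highest in the high scar of day 4, 3 of them by 0.5 or more (against 1.55% of genes tested). The medians were 0.13, -0.047 and -0.020. Nppb had the lowest p of the list for high against low, with a difference of 0.58 ± 0.75 (SD of 3 pairs, limma adjusted p = 0.564). Within the day 4, 6 and 9 pairs it differed by 1.40, -0.072 and 0.42. Actc1, the cardiac actin that skeletal muscle also makes during development and repair, was at 8.05, 6.34 and 6.47 in high scars, against 6.36, 6.45 and 6.16 in low scars. Tnni3, the troponin I found in heart, was at 7.60, 7.50 and 7.46 in high scars and 7.62, 7.55 and 7.72 in low scars. Of the genes of smooth muscle and myofibroblasts, 5 of 10 were highest in the high scar of day 4, against 24% of genes tested. None stood above the other samples there by 0.5 or more. Their median differences were 0.053, 0.048 and 0.21. Myocd, a coactivator that drives smooth muscle genes, differed by 0.18 ± 0.06 (SD of 3 pairs, limma adjusted p = 0.465).

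Markers of other tissue layers were highest in the same biopsy. All 8 adipocyte genes with a row exceeded the other 5 samples there by 0.5 log2 units or more, against 1.55% of genes tested. Their medians were 0.89, -0.14 and -0.042 within the pairs. Their mean level ranged from 5.71 to 7.27 over high scars and from 5.78 to 6.34 over low scars. Fabp4, a lipid carrier of fat cells, was at 8.63, 7.56 and 7.50 in high scars and 7.54, 7.78 and 7.42 in low scars. All 12 hair shaft and inner root sheath genes were also above every other sample by 0.5 or more, with medians of 2.56, 0.10 and 1.86. Their mean level ranged from 8.41 to 11.21 over high scars and from 6.76 to 8.72 over low scars. The hair genes differed at day 9 as well, where the muscle and adipocyte genes did not.

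Sebaceous genes had 5 of 6 highest in the high scar of day 4, against 24% of genes tested, with medians of 0.32, -0.41 and -0.054. Their mean level ranged from 7.84 to 10.00 over high scars and from 8.02 to 9.69 over low scars. Basal keratinocyte genes were highest there for 5 of 5, but 0 by 0.5 or more, with a mean level from 9.91 to 10.40 over high scars and from 9.93 to 10.08 over low scars. Genes of the scar's own cells gave no such pattern. Fibroblast and matrix genes were highest there for 0 of 6, with a mean level of 11.34 to 11.53 over high scars and 11.44 to 11.60 over low scars. Endothelial genes were highest there for 0 of 4, macrophage genes for 0 of 4 and Schwann cell genes for 0 of 2. The part of adipose, hair or sebaceous tissue in the muscle differences was not tested.

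**Figure D5:**
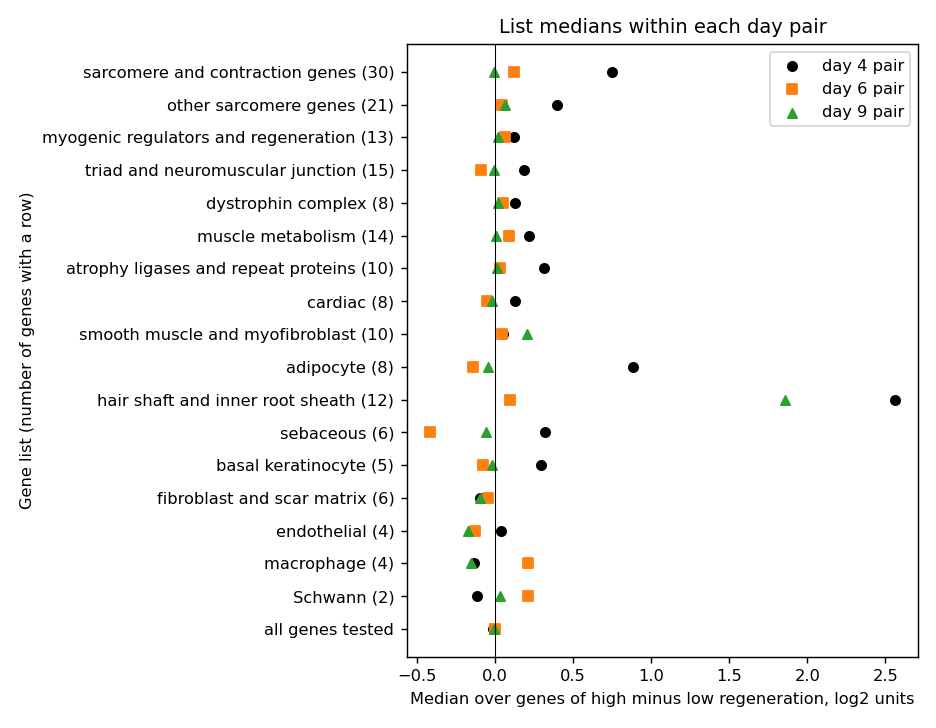
Median over genes of the difference of high minus low scars in log2 units (horizontal) for each gene list (vertical, with the number of genes that had a row), with 1 point for each day pair. Sarcomere and contraction genes, adipocyte genes and hair genes stand farthest above 0 at day 4, at 0.75, 0.89 and 2.56, and the hair genes alone of these also at day 9.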

How the data were processed

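Levels were read from the deposited series matrix, in which 53145 rows were on a log2 scale made by the authors (a unit read from the values). Affymetrix Expression Console and PLIER were used, per the submitters' processing notes, with versions, genome build and background correction not given in the sources used here. Rows were named through the platform annotation: 25466 had 1 symbol, 2299 several and 25380 none. Each gene was represented by its row of highest mean, and the lowest 25% of 20255 genes by mean level (below 5.60) were left out of tests, leaving 15191.

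The limma package (3.58.1, R 4.3.3; lmFit and eBayes, two-sided) fitted high against low scars with day as a block, the slope per day with group as a covariate, and the interaction of day and group, leaving 2, 3 and 2 residual degrees of freedom. The pairing comes from the design text. Deviations of same-day samples from their group means correlated across genes at r = 0.500, 0.112 and 0.560 at days 4, 6 and 9, weakly at day 6. These values cannot tell the day itself from anything else that a pair shared. The p-values measure only the spread between these samples, and the number of arrays limits precision. The fits were tested on simulated data with known changes.

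Members, fibre classes and gene lists were chosen with earlier results of these data known. The rule for named genes gave values in every sample for the main filament, troponin and calcium genes and for extreme members, and up to 4 genes of lowest p per other list. Alternatives were other filters, quantile normalization, the mean of a gene's rows, no day term, and leaving out samples.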

Additional observations from a re-analysis of the deposited data

Results flagged for a closer look

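Rows annotated to several genes name none of them and stood outside the report's comparisons. In the high scar of day 4, 3 of 5 rows that carry a listed symbol exceeded all 5 other samples by 0.5 log2 units or more. Of the genes tested 1.55% did so, but the share over all rows with several symbols was not computed. The row annotated to Myh8, Myh2, Myh3 and Myh1 together was higher than the highest low scar by 1.78, that annotated to Myh4 and Myh1 by 0.94, and that annotated to Xirp2 and Gm1322 by 0.67. The row annotated to Myh7 and Myh6, the slow and cardiac heavy chains, was at 6.12, 5.97 and 5.87 in high scars at days 4, 6 and 9, against 5.83, 5.73 and 5.73 in low scars. The row annotated to Ppp1r12c and Tnnt1 was at 8.07, 8.20 and 8.22 in high scars, against 7.97 to 8.02 in low scars, so its high scar of day 4 was the lowest of the high scars. Which gene of each row gave the signal was not tested.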

How the results depend on the processing

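Of the members, 0 passed an adjusted p of 0.05 under any alternative tried, for high against low or for the slope. The count over all genes did change: 8 genes passed for high against low with day as a block, against 0 after quantile normalization, 0 without the filter on dim genes and 0 to 35 when 1 day pair was left out, the 35 without the day 6 pair. Without the replicate block, that is with no day term, 6 genes passed. For the slope 0 genes passed, against 7 without the group term and 0 to 130 when 1 sample was left out, the 130 without the high scar of day 6. The cause of these changes was not tested. For the slope difference 0 genes passed under every alternative tried.

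The median of high minus low over the members tested, 0.29, was 0.12 with a filter that left 6 members and 0.31 with the mean of a gene's rows. Leaving out the day 4, day 6 or day 9 pair gave 0.066, 0.39 and 0.39. Fast and slow medians of 0.38 and 0.16 were 0.11 and 0.036 without the day 4 pair. The median slope of -0.098 was -0.039 without the high scar of day 4, -0.041 with that stricter filter and -0.16 without the low scar of day 9. With another row for Myh1, an alternative chosen after seeing the data, its difference was 0.92, 0.54 or 0.43 in place of 0.23, with limma adjusted p from 0.614 to 0.833. Signal near the array medians limits what can be said of members outside the high scar of day 4.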
